A study of Mus musculus with 10 samples.

Results

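The macrophage and leukocyte genes described here are 41 of the 55401 genes in the deposited tables, taken by gene symbol and sorted by the cells they are best known from: 12 pan-macrophage and leukocyte genes, 2 ligands of the receptor CSF1R, 8 resident macrophage genes, 3 recruited monocyte genes, 5 lysosomal and lipid-associated macrophage genes, 6 lymphocyte genes, 2 neutrophil genes and 3 mast cell genes. RNA from the left ventricle (LV) of 5 mice with neonatal ascending aortic constriction (nAAC) and 5 sham-operated mice was sequenced at 4 weeks of age, with 1 library per mouse. In nAAC mice the ascending aorta was narrowed around a needle on the first day of life, so the LV had pumped against a raised pressure since birth, and sham mice had surgery without the constriction. All mice were wild type (WT), which the study's methods describe as offspring of Ahr heterozygous parents on a C57BL/6 background, and the pups of both groups stayed with their mothers. The question of the comparison was how the LV transcriptome of nAAC mice differs from that of sham mice.

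Tissue macrophages of the heart are of more than one origin. Resident macrophages are seeded before birth, renew themselves locally, take up dying cells and debris, and carry scavenger receptors such as CD163 and the mannose receptor. Their survival depends on the receptor CSF1R and its ligands CSF1 and IL-34, which are made by fibroblasts, endothelial cells and other stromal cells. Monocytes that enter the heart from the blood, marked in the mouse by Ly6C, can become macrophages too, and macrophages that digest lipid or debris in injured tissue switch on TREM2, GPNMB, galectin-3 and cathepsins. Neutrophils, mast cells, T cells and B cells are present in the heart in smaller numbers.

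The deposited FPKM counts fragments of a gene after division by transcript length and library depth. Differences between groups are given as a log2 fold change (log2 FC), the difference between the mean log2(FPKM + 1) of nAAC and sham mice, which understates the change of genes with low FPKM. limma was applied to the 11867 genes whose mean FPKM reached 1, and Benjamini-Hochberg adjustment of the p values covered the same 11867. A gene is called where the adjusted p is below 0.05, and it is a differentially expressed gene (DEG) where the absolute log2 FC is also above 1. The sources used here do not say which mice were littermates. Except where stated below, p values set the difference between groups against the spread between these mice.

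The libraries held between 4.86 and 6.82 gigabases of aligned sequence by an estimate from FPKM and coverage, and between 11182 and 12455 genes reached an FPKM of 1. The cardiomyocyte gene Tnnt2 lay between 2185 and 5959 FPKM, as befits heart tissue. Mitochondrial genes took 32.9% to 39.9% of the TPM in nAAC mice and 33.7% to 49.8% in sham mice, where sham replicates 4 and 5, at 33.7% and 38.3%, lay within the nAAC range and replicates 1 to 3, at 46.5% to 49.8%, above it. Over all genes tested the log2 FC had a median of 0.22, and of -0.00077 after median-ratio scaling, in which each library is divided by its typical ratio to a reference made of all libraries. Results are therefore given relative to this shift where it matters. The atrial gene Myl7 spanned 0.654 to 79.8 FPKM among nAAC libraries and 1.16 to 22.4 among sham libraries. Xist, which is expressed from the inactive X chromosome, was between 14.8 and 17.9 FPKM in 4 nAAC mice, 3.70 and 10.6 in sham replicates 4 and 5, and at most 0.0232 in the other 4 libraries.

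Macrophage genes were moderately abundant in both groups, lymphocyte genes were close to undetected, and most of the macrophage genes differed little from the general shift. Of the 41 genes, 27 passed the filter and were tested, and 8 of them were higher in nAAC mice, namely Fcer1g, Tyrobp, Laptm5, Csf1, Il34, Gas6, Trem2 and Lgals3. That is 29.6% of the 27, against 27.1% of all genes tested that were called higher, so the share of called members was close to the background. No member was called lower, against 4.6% of all genes tested. Only Lgals3 was a DEG, where 5.01% of all genes tested were up-regulated DEGs. In 5 members no sham mouse reached the lowest nAAC mouse, and 18.9% of all genes tested showed the same separation. After median-ratio scaling 5 members were higher (Laptm5, Il34, Gas6, Trem2 and Lgals3) and 1 was lower (Cd163), against 13.2% and 12.1% of all genes tested. In bulk tissue, fewer cells of a type and less RNA per cell cannot be told apart, and this holds for every level given here. With Xist as a covariate 3 of the 27 members were called higher, namely Csf1, Il34 and Gas6, against 1593 of the 11867 genes tested. The number of mice with Xist RNA differed between the groups.

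**Figure D1:**
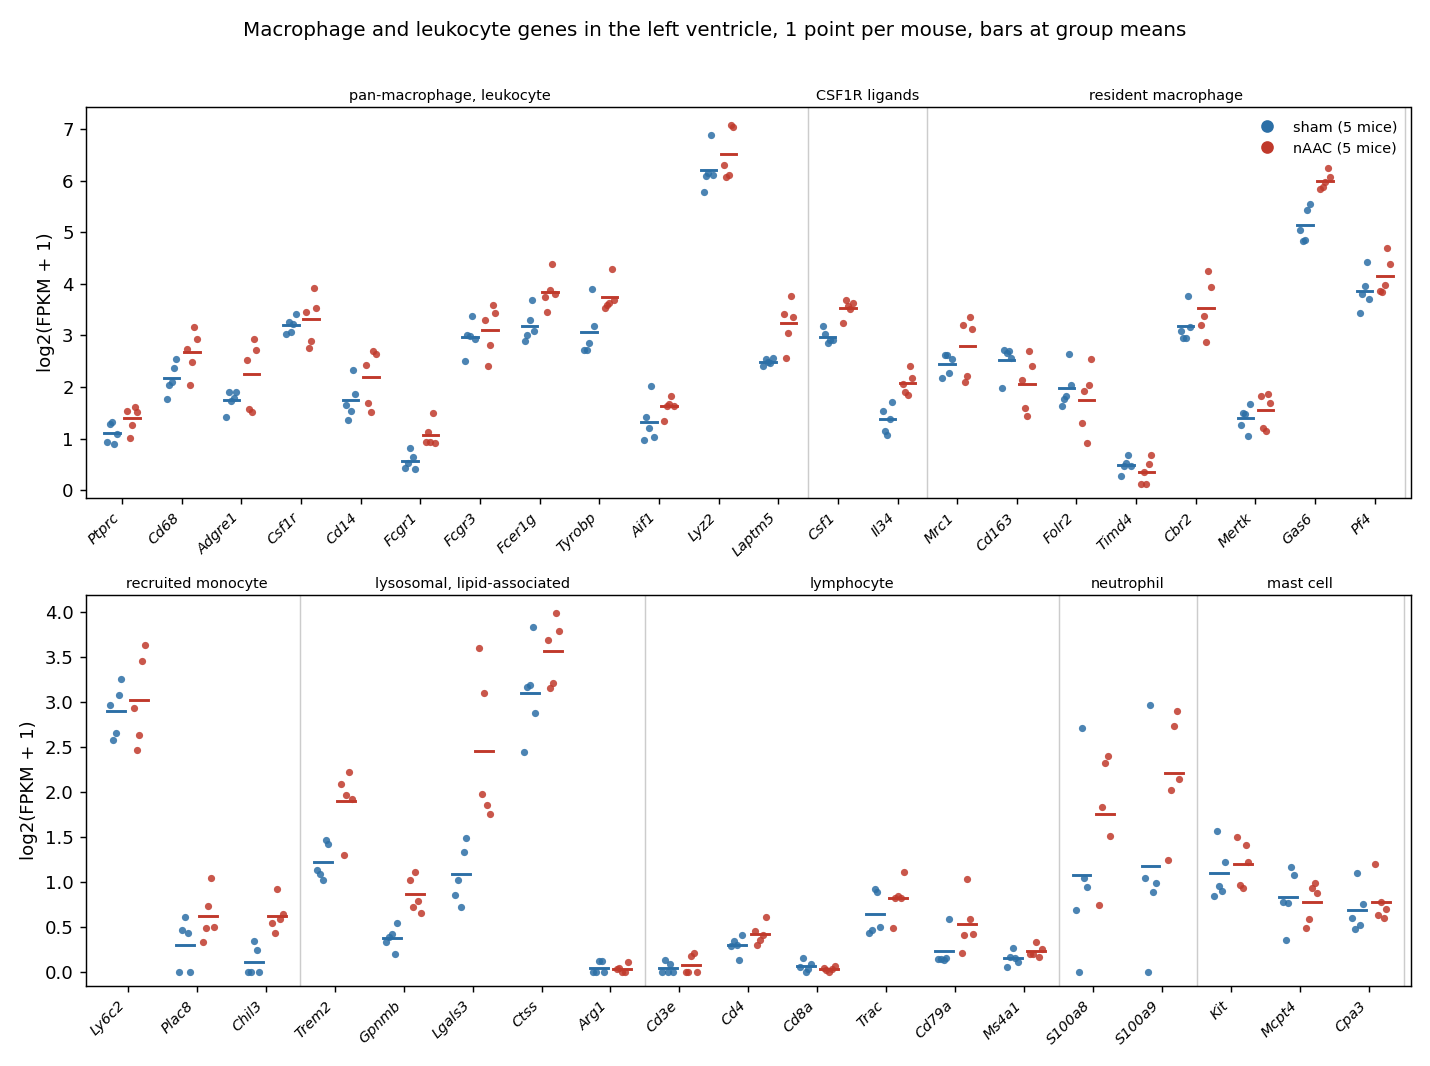
log2(FPKM + 1) of all 41 genes, grouped by cell class, with 1 point per mouse (blue, sham; red, nAAC; 5 mice each) and a bar at each group mean. The red points lie wholly above the blue ones for Csf1, Il34, Gas6, Lgals3, Fcgr1, Chil3, Gpnmb and, by very little, Laptm5. No lymphocyte gene exceeds 1.16 FPKM.

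Of the 12 pan-macrophage and leukocyte genes, 11 were tested and 3 were called higher, at a median log2 FC of 0.45 that stood 0.22 above that of all genes tested. With Xist as a covariate the median of the 11 was 0.18, only 0.026 above that of all genes tested, and 0 were called. Laptm5 (ENSMUSG00000028581), which encodes a lysosomal membrane protein of blood cells, is located at 130913125 to 130936141 of chromosome 4 (build GRCm38, plus strand). Its FPKM was 9.73, 4.91, 7.27, 12.6 and 9.32 in nAAC replicates 1 to 5 and 4.29, 4.85, 4.58, 4.5 and 4.91 in sham replicates 1 to 5. The sham mice lay close together, 4 of the nAAC mice stood well above them, and nAAC replicate 2 was level with the highest sham mouse, at 4.910 against 4.909. The log2 FC was 0.74 (SE, its standard error, 0.18, adjusted p = 0.0080), and 0.48 with an adjusted p of 0.11 with Xist as a covariate.

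Fcer1g and Tyrobp encode the signalling adaptors FcRγ and DAP12, which pair with Fc receptors and with receptors such as TREM2. Fcer1g (chromosome 1, 171229572 to 171234365, minus strand) was 12.4, 9.95, 13.7, 19.8 and 12.9 FPKM in nAAC mice and 6.40, 7.00, 8.89, 11.9 and 7.45 in sham mice. Only sham replicate 4 reached into the nAAC range. Fcer1g had a log2 FC of 0.66 (SE 0.19, adjusted p = 0.017), and 0.40 with an adjusted p of 0.10 after median-ratio scaling. Tyrobp (chromosome 7, 30413760 to 30417585, plus strand) was 10.5, 11.02, 11.3, 18.6 and 11.8 FPKM in nAAC mice and 5.59, 5.57, 6.21, 13.9 and 8.10 in sham mice. Sham replicate 4 was above 4 of the 5 nAAC mice. For Tyrobp the log2 FC came to 0.67 (SE 0.23, adjusted p = 0.038), and the call was lost in 10 of the 17 alternative fits, among them those without nAAC replicate 2, 3, 4 or 5 or without sham replicate 1, 2 or 3, where the adjusted p lay between 0.051 and 0.10.

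The receptors and general markers of macrophages overlapped between the groups. Csf1r, the receptor on which macrophage survival depends, was 9.99, 5.78, 6.47, 14.1 and 10.5 FPKM in nAAC mice and 7.11, 8.61, 7.36, 8.36 and 9.71 in sham mice. The nAAC mice spread to both sides of the sham mice. Its log2 FC was 0.11 (SE 0.20, adjusted p = 0.68), and it was -0.14 after median-ratio scaling, so that its direction depended on the scaling. Adgre1, the gene of the macrophage marker F4/80, was 4.78, 1.98, 1.88, 6.67 and 5.55 FPKM in nAAC mice and 1.67, 2.72, 2.32, 2.47 and 2.76 in sham mice. Adgre1 lay within the sham range in nAAC replicates 2 and 3 and well above it in the other three. Its log2 FC was 0.51 (SE 0.26, adjusted p = 0.15).

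The lysosomal glycoprotein gene Cd68 had a log2 FC of 0.50 (SE 0.20, adjusted p = 0.074) and was called in 5 of the 17 alternative fits. Ptprc, which encodes the leukocyte antigen CD45, was 1.65 ± 0.427 FPKM in nAAC mice and 1.17 ± 0.290 in sham mice (SD, n = 5 each), with an adjusted p of 0.14. The lipopolysaccharide co-receptor gene Cd14, the calcium-binding protein gene Aif1 and the lysozyme gene Lyz2 had log2 FCs of 0.45, 0.29 and 0.31 with adjusted p values from 0.19 to 0.35. Lyz2 was the most abundant of the class, at 95.2 ± 34.1 and 75.3 ± 24.5 FPKM, and reads shared with its close copy Lyz1 could not be separated here. Fcgr3, a low-affinity Fc receptor gene, was 8.04 ± 2.77 and 6.96 ± 1.69 FPKM, and its log2 FC of 0.15 became -0.10 after median-ratio scaling. None of these 6 genes reached the threshold in FPKM as deposited.

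Fcgr1, the gene of the high-affinity Fc receptor CD64 that marks macrophages against other leukocytes, was under the filter. Its FPKM was 0.913, 1.17, 0.918, 1.81 and 0.892 in nAAC mice and 0.351, 0.445, 0.755, 0.563 and 0.335 in sham mice. The groups did not overlap, and the two-sided exact permutation test gave p = 0.0079, the smallest value possible with 5 mice in each group. Of the 14 members under the filter, 3 showed such separation, Fcgr1, Chil3 and Gpnmb, where 10.3% of the 29309 genes above 0 in any library did. Those 29309 include the 11867 genes over the filter, 18.9% of which were apart, so the share among genes under it was lower than 10.3%. The same 3 were called in a limma fit over the 29309 genes, with adjusted p values of 0.027, 0.0093 and 0.012. There 11.6% of genes, over and under the filter together, were called higher. Fc receptor genes are close relatives, and reads could be divided between them in a way the tables do not show.

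**Figure D2:**
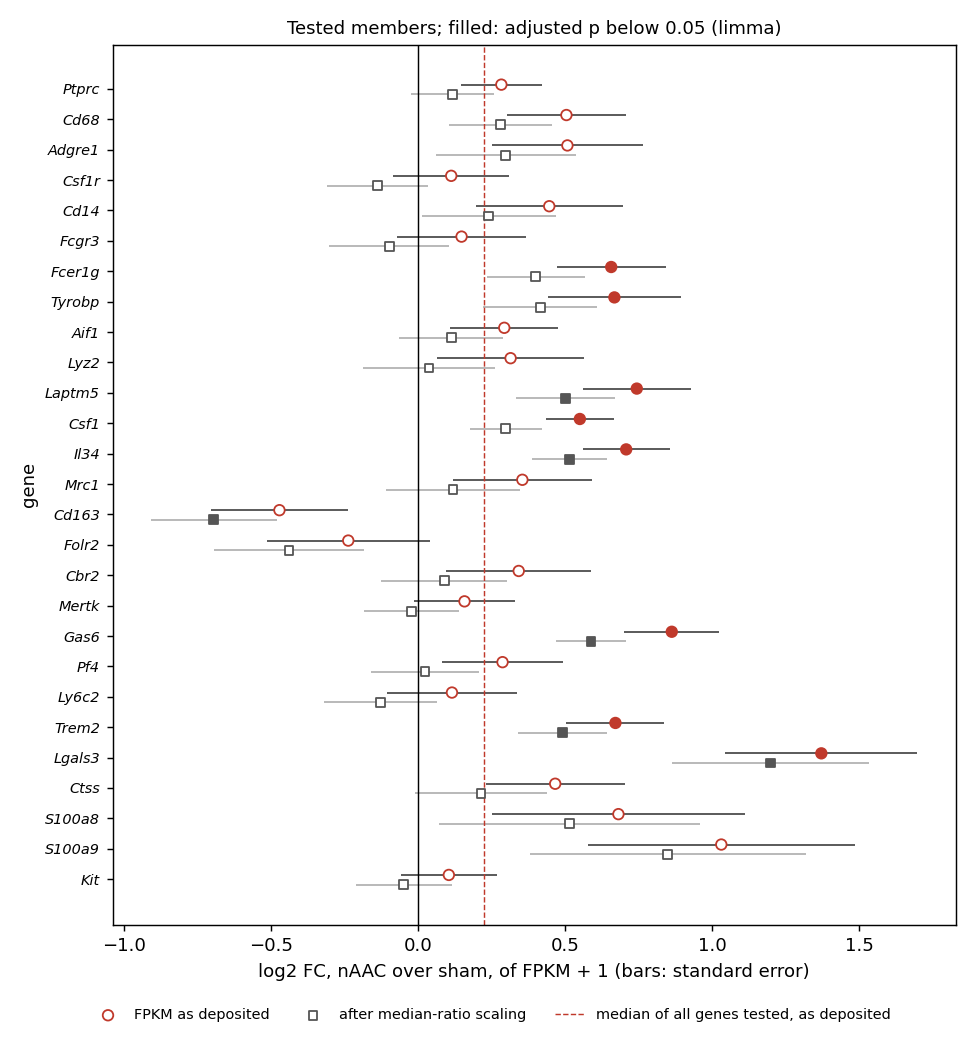
log2 FC of the 27 tested genes with standard errors, in FPKM as deposited (circles) and after median-ratio scaling (squares), filled where the limma adjusted p is below 0.05. 25 of the 27 circles lie right of 0, the dashed line marks the median of all genes at 0.22, and Cd163 and Folr2 lie left of 0 in both scalings.

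Both ligands of CSF1R were higher in nAAC mice. Csf1 (ENSMUSG00000014599, chromosome 3, 107741048 to 107760469, minus strand), the macrophage colony-stimulating factor gene, was 8.41, 11.8, 10.9, 10.4 and 11.4 FPKM in nAAC mice and 8.06, 7.21, 6.22, 6.49 and 6.54 in sham mice. The groups did not overlap, although nAAC replicate 1 was close to sham replicate 1. Csf1 had a log2 FC of 0.55 (SE 0.12, adjusted p = 0.0033), and 0.30 with an adjusted p of 0.096 after median-ratio scaling, the only one of 17 alternative fits in which it was not called. Il34 (ENSMUSG00000031750, chromosome 8, 110741829 to 110805924, minus strand), which encodes the second ligand, was 3.17, 2.75, 2.60, 4.33 and 3.52 FPKM in nAAC mice and 1.92, 1.23, 1.11, 1.62 and 2.26 in sham mice. All nAAC mice were above all sham mice here as well. For Il34 the log2 FC came to 0.71 (SE 0.15, adjusted p = 0.0031), and it stayed called in all 17 alternative fits, between 0.52 and 0.99. The order of the nAAC mice differed between the ligands, since replicate 1 was the lowest for Csf1 and replicate 3 for Il34. The 12 fibroblast genes listed for comparison, whose cells also make Csf1, summed to between 1222 and 1914 FPKM in nAAC mice and between 753 and 985 in sham mice, and their part in the ligand levels was not tested.

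Among the resident macrophage genes, 7 of 8 were tested, 1 was called higher and none lower, and the median log2 FC of 0.29 was 0.06 above that of all genes. With Xist as a covariate the class median relative to all genes was -0.066. The called gene was Gas6 (ENSMUSG00000031451, chromosome 8, 13465374 to 13494490, minus strand), which encodes a bridging ligand between phosphatidylserine on dying cells and the receptors TYRO3, AXL and MERTK. Its FPKM was 56.6, 57.9, 61.6, 74.9 and 65.8 in nAAC mice and 32.0, 27.5, 27.8, 42.0 and 45.5 in sham mice. The lowest nAAC mouse stood well clear of the highest sham mouse. The log2 FC was 0.86 (SE 0.16, adjusted p = 0.0014) and was called in all 17 alternative fits. Gas6 is expressed by endothelial cells, smooth muscle cells and fibroblasts as well as macrophages, with a mean FPKM in nAAC mice of 63.4 ± 7.39, against 9.37 ± 3.37 for Csf1r (SD, n = 5 each).

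Cd163, the hemoglobin scavenger receptor gene (ENSMUSG00000008845, chromosome 6, 124304656 to 124330527, plus strand), had the most negative log2 FC of the tested members. Its FPKM was 3.40, 2.01, 1.71, 5.47 and 4.32 in nAAC mice and 2.98, 5.56, 5.33, 5.47 and 4.92 in sham mice. The groups overlapped, because nAAC replicate 4 was as high as most sham mice and sham replicate 1 was low. The log2 FC was -0.47 (SE 0.23, adjusted p = 0.14), and after median-ratio scaling it was -0.69 with an adjusted p of 0.030, the only alternative fit in which the gene was called. Folr2, the folate receptor gene of resident macrophages, had a log2 FC of -0.24 (SE 0.28, adjusted p = 0.53), with 2.62 ± 1.54 and 3.09 ± 1.27 FPKM (SD, n = 5 each). It shares 975 of its 1546 exonic bases with the opposite-strand gene Gm10602, and the library kit does not mark strand, so reads of the pair cannot be told apart.

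The remaining resident genes overlapped between groups. The mannose receptor gene Mrc1 was 8.27, 3.30, 3.64, 9.20 and 7.71 FPKM in nAAC mice and 3.52, 5.19, 5.12, 3.84 and 4.82 in sham mice. As with Adgre1, nAAC replicates 2 and 3 were the low ones and the other three stood above all sham mice. The log2 FC of Mrc1 was 0.35 (SE 0.24, adjusted p = 0.26). Mertk, a receptor for the uptake of dying cells, the carbonyl reductase gene Cbr2 and the chemokine gene Pf4 had log2 FCs of 0.16, 0.34 and 0.29 with adjusted p values between 0.30 and 0.50. Pf4 is also a platelet gene, and 9 other platelet and megakaryocyte genes had mean FPKM of at most 0.590. The part of platelets in the Pf4 level was not tested. Timd4, a phosphatidylserine receptor gene of long-lived resident macrophages, was listed at 0.0834 to 0.608 FPKM in nAAC mice and at 0.211 to 0.600 in sham mice.

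Of 16 other resident macrophage genes, 9 were tested, 3 were called higher and 1 lower, against 27.1% and 4.6% of all genes. The counts were the same after median-ratio scaling, against 13.2% and 12.1% of all genes. The 3 with the largest changes were Fcrls, an Fc receptor-like scavenger gene, with a log2 FC of 1.18, Igf1, a growth factor gene that fibroblasts and other cells also express, with 1.14, and the scavenger receptor gene Stab1, with 0.85. The lower gene was Selenop, which encodes a selenium carrier, with a log2 FC of -0.49, named after its value was seen. Resident macrophage genes thus included members that were higher, such as Fcrls and Stab1, beside Cd163 with a negative log2 FC. The genes that act with Gas6 in the uptake of dying cells were also among those measured. Of 14 such efferocytosis genes, 9 were tested, 6 were higher and 1 lower, against 27.1% and 4.6% of all genes. After median-ratio scaling 4 were higher and 1 lower, against 13.2% and 12.1%. The largest log2 FCs were 1.69 for the low-density lipoprotein receptor-related gene Lrp1, 1.17 for the GAS6 receptor gene Axl and 1.10 for the integrin gene Itgb5. Lrp1 and Axl are strongly expressed by fibroblasts too. The lower gene, also named after its value was seen, was Cd36, a fatty acid transporter and scavenger receptor gene that cardiomyocytes and endothelial cells express as well, with a log2 FC of -0.54.

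Within a mouse the macrophage genes differed in step, so that the spread among nAAC mice was wide. Over the 17 tested pan-macrophage and resident genes other than Gas6, nAAC replicate 4 was the highest nAAC mouse in 16 and the highest of all mice in 14. nAAC replicates 2 and 3 were both below the other three nAAC mice in 11 of the 17. The median FPKM of the 17 genes relative to the nAAC mean was 1.43 in replicate 4, 0.621 in replicate 2 and 0.712 in replicate 3. Among sham mice replicate 1 was the lowest in 12 genes and replicate 4 the highest in 9. The endothelial gene Pecam1 followed a like order in nAAC mice, at 57.3, 42.0, 43.3, 75.4 and 67.9 FPKM. The atrial gene Myl7 was high in the replicates in which macrophage genes were low, at 1.10, 54.0, 79.8, 11.9 and 0.654 FPKM. With Myl7 as a covariate, a fit chosen after these values were seen, 12 of the 27 members were called, all higher. In that fit 2867 of the 11867 genes tested were called higher. The part of atrial tissue in the spread was not tested beyond this fit.

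**Figure D3:**
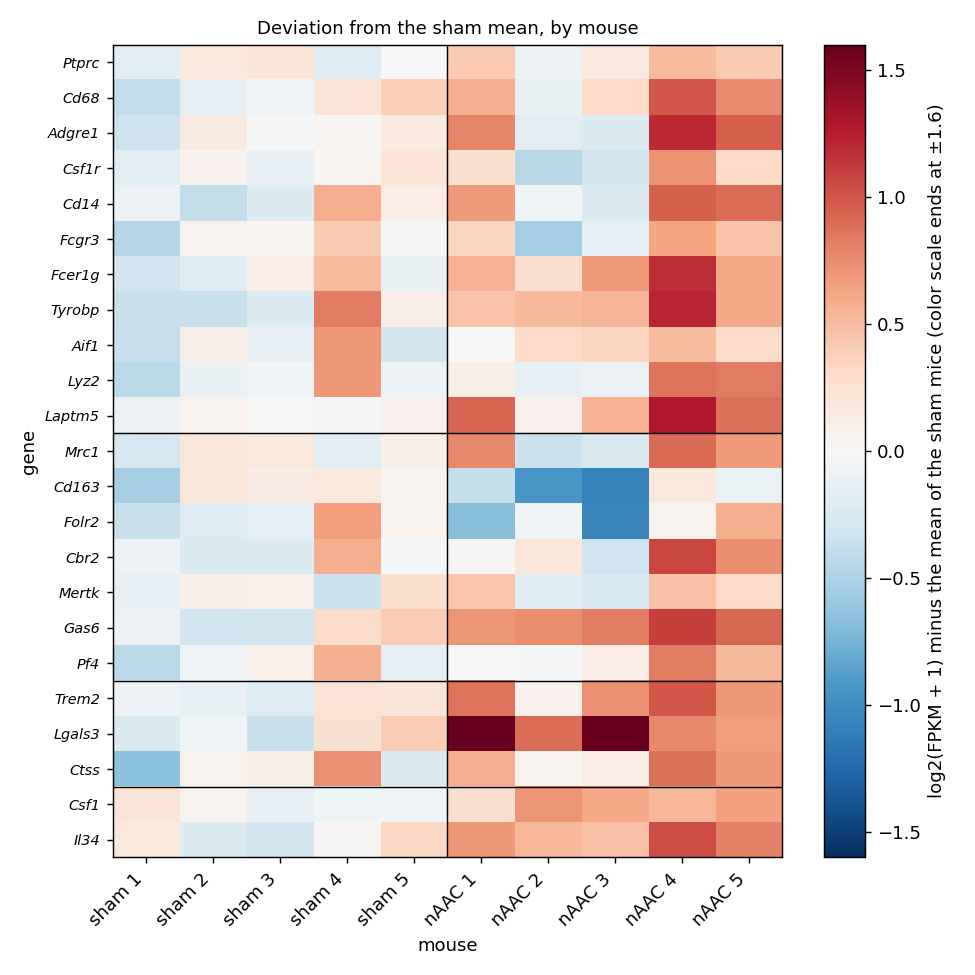
Deviation of log2(FPKM + 1) from the mean of the sham mice for the 23 tested macrophage genes and CSF1R ligands, with 1 column per mouse (color scale ending at ±1.6) and lines between pan-macrophage, resident, lysosomal and ligand genes. The column of nAAC replicate 4 is red for nearly all genes, those of replicates 2 and 3 are mixed, and the Cd163 row is blue in nAAC replicates 1 to 3.

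Levels relative to a macrophage gene of the same mouse were compared, since a ratio of FPKM does not depend on scaling between libraries. The fits used differences of log2(FPKM + 1), in which the added 1 leaves a small dependence. With log2(FPKM + 1) of Csf1r subtracted, 2 of the 26 other tested members were called higher, Lgals3 with a log2 FC of 1.26 and S100a9 with 0.92, against 7.36% of all genes. In that fit limma gave its general trend of the variance full weight over the spread of the single gene, and the ratios of S100a9 to Csf1r overlapped between groups, at 0.137 to 0.872 in nAAC mice against 0 to 0.925 in sham mice. The ratios of Lgals3 to Csf1r overlapped as well, though by little, since nAAC replicate 4 at 0.185 was just under sham replicate 5 at 0.186. Neither gene was thus wholly apart between the groups relative to Csf1r, though the mean ratio of Lgals3 was 0.64 in nAAC mice and 0.138 in sham mice. Relative to Ptprc, Lgals3 was called higher in limma, with a log2 FC of 1.09 (adjusted p = 0.048), where 658 of 11866 genes were called higher. The groups overlapped in that fit too. Relative to Adgre1 it was not called, with a log2 FC of 0.86 (adjusted p = 0.13 in limma).

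Cd163 was low relative to each of 4 other members, in all nAAC mice. These ratios were chosen after the values were seen, among 20 ratios computed, and are given as a description. All 4 use the same Cd163 values, so they are not separate results. The ratio of Cd163 to Adgre1 in FPKM was 0.712, 1.013, 0.911, 0.820 and 0.780 in nAAC mice and 1.79, 2.04, 2.30, 2.22 and 1.79 in sham mice. The nAAC mice stood together well below the sham mice, although Adgre1 and Cd163 each overlapped between groups. The means were 0.847 ± 0.117 and 2.03 ± 0.238 (SD, n = 5 each), and 2.86% of all genes were lower relative to Adgre1 in every nAAC mouse than in any sham mouse. The ratio of Cd163 to Csf1r was 0.350 ± 0.0564 in nAAC mice and 0.590 ± 0.124 in sham mice without overlap, where 1.36% of all genes showed such separation relative to Csf1r. The lowest sham value was 0.419 in replicate 1 and the highest nAAC value 0.412 in replicate 5, so this gap was narrow.

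Relative to Mrc1 and Ptprc, Cd163 was also lower in all nAAC mice, with ratios of 0.529 ± 0.0848 against 1.08 ± 0.211 and of 1.98 ± 0.540 against 4.26 ± 1.19 (SD, n = 5 each). In the limma fits the log2 FC of Cd163 was -0.58 relative to Csf1r (adjusted p = 0.13), -0.98 relative to Adgre1 (adjusted p = 0.060) and -0.75 relative to Ptprc (adjusted p = 0.016), and in the fits relative to Csf1r and Adgre1, but not in that relative to Ptprc, the spread of the single gene had no weight in the adjusted p. Relative to Ptprc 5.62% of all genes were called lower, and in the log2(FPKM + 1) of that fit Cd163 overlapped between the groups. In the same fit 538 of 11866 genes were lower in every nAAC mouse than in any sham mouse. The share of genes apart relative to Mrc1 was not computed. The ratios of 3 other resident genes to Adgre1, those of Mrc1, Folr2 and Mertk, overlapped between groups, and so did that of Mrc1 to Csf1r. Trem2 and Laptm5 were higher relative to Csf1r in every nAAC mouse, at 0.310 ± 0.0825 against 0.165 ± 0.0311 and at 0.946 ± 0.108 against 0.566 ± 0.0474. They were not alone, since in log2(FPKM + 1) 4 of the 26 members showed this separation relative to Csf1r, namely Cd68, Laptm5, Gas6 and Trem2. The same held for 6.0% of all genes. Relative to Adgre1 all 4 overlapped. Csf1r shares 873 of its 5774 exonic bases with the opposite-strand gene Hmgxb3, which had 3.18 FPKM in nAAC mice and 2.46 in sham mice.

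**Figure D4:**
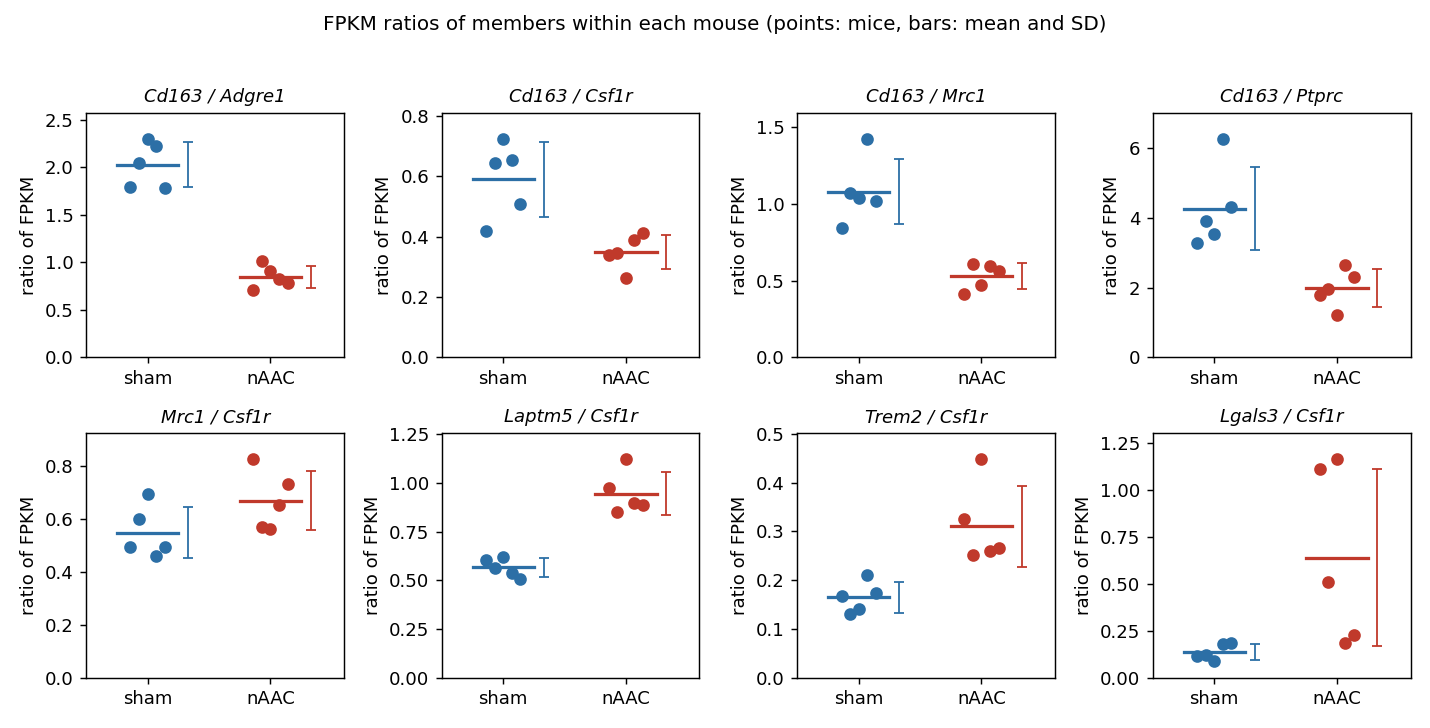
Ratio of the FPKM of the first gene to that of the second within each mouse, with 1 point per mouse and bars for mean and SD (5 sham and 5 nAAC mice per panel, linear axes from 0). The ratios of Cd163 to Adgre1, Csf1r, Mrc1 and Ptprc are lower in every nAAC mouse, and those of Laptm5 and Trem2 to Csf1r are higher in every nAAC mouse.

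The lysosomal and lipid-associated macrophage genes held the only DEG. Lgals3 (ENSMUSG00000050335, chromosome 14, 47367751 to 47386160, plus strand), which encodes the sugar-binding protein galectin-3, was 11.1, 2.94, 7.54, 2.61 and 2.38 FPKM in nAAC mice and 0.814, 1.03, 0.653, 1.52 and 1.81 in sham mice. All nAAC mice were above all sham mice, with replicates 1 and 3 far above the rest. Lgals3 had a log2 FC of 1.37 (SE 0.33, adjusted p = 0.0066), and 1.03 with an adjusted p of 0.079 with Xist as a covariate. nAAC replicates 1 and 3 were not the mice in which the pan-macrophage genes were highest. Macrophages express galectin-3, and so do fibroblasts and injured epithelial and muscle cells.

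Trem2 (ENSMUSG00000023992, chromosome 17, 48346401 to 48354147, plus strand), a lipid-sensing receptor of macrophages that signals through DAP12, was 3.26, 1.46, 2.90, 3.65 and 2.79 FPKM in nAAC mice and 1.19, 1.13, 1.03, 1.75 and 1.69 in sham mice. Only nAAC replicate 2 lay within the sham range. Trem2 had a log2 FC of 0.67 (SE 0.17, adjusted p = 0.0085), and 0.34 with an adjusted p of 0.092 with Xist as a covariate. Gpnmb, a lysosomal glycoprotein gene of lipid-laden macrophages, was under the filter, at 1.03, 0.656, 1.16, 0.731 and 0.583 FPKM in nAAC mice and 0.259, 0.310, 0.343, 0.148 and 0.464 in sham mice, without overlap (two-sided exact permutation test, p = 0.0079). Ctss, the cathepsin S gene, was 11.1 ± 2.99 and 8.002 ± 3.25 FPKM with a log2 FC of 0.47 and an adjusted p of 0.15. Arg1, an arginase gene of alternatively activated macrophages, was at most 0.0922 FPKM in any mouse and listed at 0 in 5 of 10.

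Genes that work beside these were followed in 3 further lists. All 22 genes of lysosomes and lipid handling were tested, 12 were higher and none lower, and after median-ratio scaling 6 were higher and 3 lower. Osteopontin (Spp1), which macrophages and stromal cells secrete, had a log2 FC of 1.91, cathepsin Z (Ctsz) 1.5 and the hexosaminidase gene Hexa 0.85. Of 26 genes of the myeloid lineage and its signalling, 17 were tested and 9 were higher, with none lower. After median-ratio scaling 6 of them were higher and 0 lower. The largest log2 FCs were 1.08 for the kinase gene Syk and 1.004 for the phospholipase gene Plcg2, which act downstream of DAP12 and FcRγ, and 0.80 for the actin-binding protein gene Coro1a. Of 18 other Fc receptor and DAP12 partner genes, 5 were tested and 2 were higher, the inhibitory Fc receptor gene Fcgr2b with a log2 FC of 0.75 and the lectin gene Clec4n with 0.62. In this list 2 were higher and 0 lower after the scaling as well. The background for these counts is 27.1% of all genes called higher and 4.6% lower, and 13.2% and 12.1% after median-ratio scaling.

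Myeloid genes are known for promoters that bind the transcription factor PU.1, whose sites hold a GAGGAA core. RefSeq promoter sequences of GRCm38.p6, which run from 250 bases before to 50 after each start, were at hand for 32 of the 41 genes. The letters GAGGAA, searched on both strands, were in 18 of the 32 (56.2%) and in 31.3% of 27025 genes. The longer GAGGAAGT, which contains GAGGAA, was in 4 of the 32 (12.5%: Pf4, Ly6c2, Ctss and S100a8) and in 3.69% of all genes. Among members with a promoter sequence, GAGGAA was in 2 of 6 that were called (Laptm5 and Trem2), in 11 of 16 tested and not called and in 5 of 10 under the filter. To show what such a match looks like in a called gene, a gene under the filter without overlap and a gene not called, stretches of the Trem2, Fcgr1 and Ctss promoters are given 5′ to 3′ along the gene, with the match in capitals (TTCCTC is GAGGAA on the opposite strand).
Trem2, chr17:48346335-48346392, plus strand: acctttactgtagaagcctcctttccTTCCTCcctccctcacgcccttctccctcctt
Fcgr1, chr3:96293993-96294050, minus strand: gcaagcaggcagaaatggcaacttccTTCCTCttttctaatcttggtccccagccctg
Ctss, chr3:95526596-95526653, plus strand: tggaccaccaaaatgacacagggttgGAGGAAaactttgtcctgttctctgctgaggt
The match lies 40 bases before the start in Trem2, 55 in Fcgr1 and 164 in Ctss. These letters describe the windows only, and no binding was measured here.

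Recruited monocyte genes gave 1 tested gene. Ly6c2, the Ly6C antigen gene of inflammatory monocytes, was 6.60, 4.505, 5.19, 9.93 and 11.3 FPKM in nAAC mice and 6.79, 4.98, 5.27, 7.43 and 8.50 in sham mice. The groups overlapped throughout, with a log2 FC of 0.12 (SE 0.22, adjusted p = 0.71) that became -0.13 after median-ratio scaling. Its near-identical neighbor Ly6c1, an endothelial gene, was between 134 and 238 FPKM over all mice, and reads of the pair may have been divided in ways the tables do not show, so the Ly6c2 level is uncertain.

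Plac8, a monocyte gene, was listed at 0.267, 0.406, 0.660, 1.06 and 0.415 FPKM in nAAC mice and at 0, 0.381, 0.533, 0.348 and 0 in sham mice. Chil3, which encodes the chitinase-like protein YM1 of monocytes and alternatively activated macrophages, was at 0.465, 0.357, 0.900, 0.501 and 0.564 FPKM in nAAC mice and at 0, 0, 0.271, 0.189 and 0 in sham mice. For Chil3 the groups were apart (p = 0.0079 in the two-sided exact permutation test), at levels below 1 FPKM. Of 12 other recruited monocyte genes 4 were tested, and all 4 were up-regulated DEGs, against 5.01% of all genes tested. The largest changes were in the angiotensin-converting enzyme gene Ace with a log2 FC of 2.51, the fibronectin gene Fn1 with 2.01 and the versican gene Vcan with 1.93. Ace is an endothelial gene and Fn1 and Vcan are matrix genes of fibroblasts, so these counts do not speak for monocytes alone.

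The 6 lymphocyte genes were at low levels. None of the 6 reached the filter, and the highest value in any mouse was 1.16 FPKM, for the T cell receptor constant gene Trac in nAAC replicate 5. Cd3e, a T cell receptor signalling subunit, was listed at 0 in 3 nAAC and 3 sham mice and at most at 0.163 FPKM in the rest. The co-receptor gene Cd8a did not exceed 0.120 FPKM, while Cd4, which mouse macrophages can also express at a low level, was 0.349 ± 0.113 in nAAC mice and 0.232 ± 0.0848 in sham mice (SD, n = 5 each). The B cell genes Cd79a, a B cell receptor subunit, and Ms4a1, the gene of CD20, ran from 0.0976 to 1.05 and from 0.0427 to 0.260 FPKM over all mice. All 6 genes overlapped between groups, and none of them was called in the fit without a filter. Of 21 other T and NK cell genes none reached the filter, and their sum was between 1.22 and 3.04 FPKM in nAAC mice and between 1.55 and 3.94 in sham mice. Of 12 other B cell genes 2 were tested and none was called. Their sum was higher, between 7.66 and 12.2 FPKM in nAAC mice and between 5.64 and 10.3 in sham mice.

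The neutrophil genes S100a8 and S100a9, the subunits of calprotectin, varied more between mice than between groups. S100a8 was 0.684, 2.55, 3.98, 4.25 and 1.85 FPKM in nAAC mice and 0.619, 0, 5.53, 1.07 and 0.927 in sham mice. S100a9 was 1.37, 3.06, 5.65, 6.46 and 3.43 FPKM in nAAC mice and 1.07, 0, 6.81, 0.848 and 0.990 in sham mice. Sham replicate 3 was the highest of all mice for both genes, and sham replicate 2 was listed at 0 for both. Their log2 FCs were 0.68 (SE 0.43, adjusted p = 0.24) and 1.03 (SE 0.45, adjusted p = 0.099). Without sham replicate 3 they were 1.09 and 1.48, with adjusted p values of 0.025 and 0.0049. S100a8 was called in no other alternative fit, while S100a9 was also called with all mice in TPM (adjusted p = 0.048) and with the replicate number as a block (adjusted p = 0.034).

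Among 14 other neutrophil genes, Ly6g, the defining surface antigen, was listed at 0 in every library. Only the lipocalin gene Lcn2 was tested. It was 24.6, 10.3, 15.2, 9.90 and 9.56 FPKM in nAAC mice and 1.35, 0.482, 1.22, 5.45 and 2.16 in sham mice, without overlap, and its log2 FC was 2.35 (SE 0.35, adjusted p = 0.00027). Lcn2 was highest in nAAC replicates 1 and 3, as Lgals3 was, while S100a8 and S100a9 were lowest in nAAC replicate 1. Heart muscle and endothelial cells can express Lcn2 as well.

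Mast cell genes did not differ beyond the spread between mice. Kit, the stem cell factor receptor gene, was 1.83, 0.949, 0.907, 1.65 and 1.34 FPKM in nAAC mice and 0.803, 1.97, 0.942, 0.874 and 1.33 in sham mice, with a log2 FC of 0.10 (SE 0.16, adjusted p = 0.64). It is also expressed by other cells, among them progenitors and some endothelial cells. The mast cell protease genes Mcpt4 and Cpa3 were under the filter, at 0.732 ± 0.261 against 0.815 ± 0.383 FPKM and at 0.740 ± 0.318 against 0.637 ± 0.306 FPKM (SD, n = 5 each). Mcpt4 has close relatives among the chymase genes with which it may share reads. Of 10 other mast cell genes 2 were tested and none was called.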

How the data were processed

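Total RNA of the LV of 10 mice was made into libraries with a NEBNext Ultra RNA kit, which does not mark strand. For each mouse the authors deposited a gene table with coverage (the mean read depth signal per base), FPKM (coverage normalized by the authors for library depth) and TPM (FPKM rescaled by the authors to a fixed total). The submitters' processing notes name mm10, and the aligner, counter and use of strand are not given in the sources used here. Start and end of all 41 genes matched GENCODE M21.

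Rows that share a gene ID (7 to 12 repeats per table) were summed, and groups were taken from the sample titles. limma 3.58.1 (R 4.3.3) with an empirical Bayes trend was fitted to log2(FPKM + 1) of the genes whose mean FPKM reached 1. Single genes were compared by two-sided exact permutation tests. No read counts can be had from these values, so precision rests on the 5 mice per group. In simulated data each gene was drawn independently, and a change larger than the DEG threshold was added to 200 of 11867 genes, chosen among those of higher level. Of these 191 were recovered as DEGs, and no unchanged gene was a DEG. Smaller changes, such as those of the called members other than Lgals3, and genes that vary in step were not simulated. Alternatives were median-ratio scaling, TPM, a pseudocount of 0.1, no filter, Xist or Myl7 as covariates, a replicate block, other reference genes and leaving out each mouse. The Myl7 covariate and the ratios of members were added after the values were seen. All 41 members were named, and of 18 comparison lists at most the 3 called genes with the largest changes per list. The members and lists were chosen with earlier results of these data known. Figures used matplotlib 3.10.9 and pandas 2.3.3 in Python 3.11.15.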

Additional observations from a re-analysis of the deposited data

Results flagged for a closer look

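On the log2(FPKM + 1) scale, in 54 groups of 5 values, one for each tested gene in each group of mice, 3 had a highest or lowest mouse whose distance from the next one, as a share of the group's range, exceeded 0.71, the critical value of Dixon's test, where chance gives about 2.7. Tyrobp was highest in nAAC replicate 4, at 18.6 FPKM with a share of 0.795 on that scale. Cd163 was lowest in sham replicate 1, at 2.98 FPKM with a share of 0.796. Cbr2 was highest in sham replicate 4, at 12.6 FPKM with a share of 0.740.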

How the results depend on the processing

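The number of members called was 8, all higher, and 3 with Xist as a covariate; the other 16 alternatives stayed within 1.5 times of 8, with 7 to 10 when a mouse was left out. Called genes over the whole table, higher or lower, numbered 3757 as fitted, 1983 with Xist and 3354 with Myl7. Of these 3211, 1593 and 2867 were higher. DEGs among the members numbered 1 as fitted, 3 with TPM (Gas6, Lgals3 and S100a9), 0 with Xist, 2 with the replicate number as a block (Lgals3 and S100a9), and 1 to 3 when a mouse was left out, with 3 (Lgals3, S100a8 and S100a9) without sham replicate 3. Relative to Csf1r, 2 members were called as fitted, 4 with a pseudocount of 0.1, 0 with Xist, 0 with the replicate block, 0 relative to Adgre1, and 1 to 4 when a mouse was left out, with 1 without nAAC replicate 3 or sham replicate 2 and 4 without nAAC replicate 4. With Ptprc in place of Csf1r 2 were called, Lgals3 higher and Cd163 lower. The causes were not tested. Of 27 members, 5 changed the sign of their log2 FC, none of them called. Under median-ratio scaling Csf1r was -0.14, Fcgr3 -0.10, Mertk -0.022, Ly6c2 -0.13 and Kit -0.048, and with Xist Csf1r was -0.17, Fcgr3 -0.19 and Ly6c2 -0.24. When a mouse was left out, Csf1r ran from -0.038 to 0.25 and Ly6c2 from -0.036 to 0.26, with the negative values without nAAC replicate 4 and nAAC replicate 5. The ratio of Cd163 to Adgre1 in nAAC mice was between 0.398 and 0.435 of that in sham mice when a mouse was left out. Replicate numbers did not pair the mice, with correlations of same-numbered mice between -0.316 and 0.192, and with the block 11 members were called. Depth limits the genes under 1 FPKM, whose values of 0 may be failed estimates.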

Other observations

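Other cell types of the LV were followed with lists of marker genes, beside the 27.1% of all genes called higher and 4.6% called lower. Fibroblast genes were higher in 9 of 12, led by the periostin gene Postn with a log2 FC of 3.78, Mfap5 with 2.49 and Col1a1 with 2.09. Mural cell genes were higher in 6 of 9, with Tagln at 1.54, Des, which cardiomyocytes also express, at 1.35 and Myh11 at 1.25. Of 12 endothelial genes 1 was higher, the growth factor receptor gene Kdr with 0.66. Cardiomyocyte genes were higher in 3 of 12 and lower in 3, with Myh7 at 2.75, Atp2a2 at -0.87 and Pln at -0.86. Of 6 tested atrial genes 1 was higher and 2 lower, with Nppa, which the loaded ventricle also expresses, at 6.08, Stard10 at -1.18 and Tbx5 at -0.50.

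Blood and dendritic cell genes gave no calls. Of 8 erythroid genes 6 were tested and none was called, with a sum of 3397 to 8806 FPKM in nAAC mice and 2293 to 8664 in sham mice. Of 10 dendritic cell genes 2 were tested and none was called, and no platelet or megakaryocyte gene reached the filter.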
